A study of Drosophila melanogaster with 3 samples.

Results

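Trl (Trithorax-like, FBgn0013263) encodes the GAGA factor, and the peaks of tagged CG17361 protein at this gene are described here. The members were chosen by a rule that used the measured peaks: every peak whose summit lay in the Trl gene body or within 10 kb of it. In the authors' conservative list these were 6 of 7804 peaks on the 6 chromosome arms, and Trl is 1 of 18164 annotated genes. Since the number, place and strength of these peaks chose the gene, they are given as a description, with no test.

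The data are peak lists from chromatin immunoprecipitation followed by sequencing (ChIP-seq), an assay that recovers the DNA to which a protein is attached. The samples form 1 group of 3 biological replicates, each from whole Drosophila melanogaster embryos of 0 to 24 h, of the strain CG17361-GFP, a transgenic line that makes CG17361 joined to eGFP. Chromatin was sonicated to 200 to 800 bp and precipitated with an antibody to GFP. The labels list an ENCODE control experiment, whose own values were not analysed here, and they do not describe its genotype. All replicates carry the fusion, so no genotype or treatment was compared. A whole embryo mixes all tissues and a day of stages, and the sources used here do not state what drives the fusion gene, or whether the untagged protein was also present. They also do not state whether the replicates came from separate collections, and no read counts accompany the lists, so depth is unknown. The numbers of peaks in the replicates' own lists were 5942, 3797 and 5576 for replicates 1, 2 and 3.

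The GAGA factor is a zinc finger protein with a BTB domain, through which its molecules join into larger complexes. It binds DNA rich in GA repeats and is known for keeping promoters free of nucleosomes, partly by recruiting chromatin remodelling enzymes such as NURF and the Brahma complex. In the fly embryo it is supplied by the mother and then made by the zygote, and it acts at heat shock, homeotic and many other genes.

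Trl lies on chromosome arm 3L of the dm6 assembly, at positions 14747929 to 14761049 on the minus strand, and spans 13121 bp. The Ensembl annotation gives it 10 transcripts and 4 transcription start sites (TSSs). Of these, 14757962 is shared by 7 transcripts, and each of the other 3 starts 1 transcript: RF at 14761049, RA at 14757779 and RJ at 14757336. All 10 transcripts share the exon that holds the start codon. The protein-coding gene CG42507 starts at the same position as the 7 Trl transcripts, on the same strand, so a summit there cannot be told apart between these genes. Tsen34, which encodes a subunit of the tRNA splicing endonuclease, overlaps the RF start on the same strand.

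The 6 peaks fell into 4 separate regions, called here the upstream intron, the downstream intron, the start-codon exon and the Tsen34 side. A peak is an interval of the deposited list, and its summit is the position at which the authors placed its maximum. The sequences of both introns and of the Tsen34 side are shown because these regions hold the intron summits of the list. Each is the plus strand of dm6 and is centred on its summit. Capitals mark runs of 8 or more A and T. They are chr3L:14759429-14759629, chr3L:14756048-14756168 and chr3L:14760395-14760515.
upstream intron: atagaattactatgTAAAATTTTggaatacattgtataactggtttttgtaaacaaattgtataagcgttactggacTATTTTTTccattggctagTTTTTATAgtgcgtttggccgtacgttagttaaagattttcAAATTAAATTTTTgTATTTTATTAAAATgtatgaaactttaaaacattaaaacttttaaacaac
downstream intron: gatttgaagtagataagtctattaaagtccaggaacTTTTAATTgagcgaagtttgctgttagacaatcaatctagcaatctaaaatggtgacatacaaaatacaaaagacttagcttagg
Tsen34 side: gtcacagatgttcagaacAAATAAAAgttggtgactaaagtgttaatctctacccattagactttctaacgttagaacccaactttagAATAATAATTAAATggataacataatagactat

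The strongest peak of the locus, in the upstream intron, held 5 such runs in the 201 bases printed, the longest of 14 bases. The downstream intron held 1 run, of 8 bases, in 121 bases, and the Tsen34 side held 2 runs, the longest of 14 bases.

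The start-codon exon region also held, outside the exon itself, a GA repeat of the kind that the GAGA factor binds. It is shown because it is the densest run of that motif near a summit of this locus. The stretch printed, chr3L:14757341-14757441, starts 5 bp outside the RJ start and lies in the intron that precedes the shared exon in the other transcripts. Capitals mark overlapping matches of GAGAG on either strand, which read CTCTC on the plus strand printed here.
GA repeat: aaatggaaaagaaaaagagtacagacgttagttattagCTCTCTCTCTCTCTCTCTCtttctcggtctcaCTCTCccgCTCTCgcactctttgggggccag

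The strongest summit of the locus lay in the upstream intron. Its interval covered 3L positions 14759206 to 14759891, a width of 686 bp, with the summit at 14759529. It lay 1567 bp upstream of the start shared by 7 transcripts and 1520 bp from the nearest Trl start, that of RF. Only RF has an intron there, and for the other 9 transcripts the summit lies before the start. Its signal, a score on the authors' own scale that ranks peaks within a list, was 1188.04, the rank 2 of 7804 peaks.

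Replicates 1, 2 and 3 each held this peak in their own thresholded list, which keeps peaks with an irreproducible discovery rate (IDR) of 0.01 or less. Each peak has its own IDR, which is lower the better its rank holds between the lists compared. The signals were 402.03, 376.698 and 413.591 in replicates 1, 2 and 3, and the ranks were 17, 1 and 8. Expressed as percentiles of the replicate's own list these were 99.7, 100 and 99.9, or 99.9 ± 0.135 (SD, n = 3). The peak was therefore among the 17 strongest in every replicate's thresholded list, and the very strongest in that of replicate 2. In the longer ranked lists, which also hold peaks that fail IDR, it ranked 18, 1 and 8 in replicates 1, 2 and 3, and 3 in each series-level list. The series-level thresholded lists also lack some lines that pass IDR, 170 of them for the conservative list. The sources used here do not state why. A rank in a thresholded list is thus a rank among the peaks that the authors kept. The 3 summits lay within 19 bp of each other, at 14759545, 14759526 and 14759531. The −log10 IDR was 5, the highest value the lists hold, in the ranked list of every replicate and of every pair of replicates. Only the lists of pairs are known to compare replicates. A replicate's own ranked list compares inputs that are not named. Their signals for this peak were 189.673 and 210.047 in replicate 1, against its own 402.03. The IDR of such a list is not taken here as a comparison between replicates.

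The upstream intron interval carried a second, weaker summit at 14759770, with a signal of 73.2, at 241 bp from the first. Each replicate also had a second summit, at 201, 200 and 201 bp from its first, in replicate 1 in an overlapping interval with another end. Over all intervals with several summits, the median distance between neighbouring summits was 206, 207 and 202.5 bp in the thresholded lists of replicates 1, 2 and 3. In the conservative list it was 204 bp, so the 241 bp there was above the median. The lowest distance was 199 bp in each of these lists, and the replicates' distances at Trl were near it. What sets this lowest value was not tested.

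The second strongest region was the downstream intron, at 14755860 to 14756394, which lies after the start-codon exon in an intron of all 10 transcripts. Its summit at 14756108 lay 1854 bp downstream of the shared start and 1228 bp from the nearest Trl start. The signal was 711.695 and the rank 292 of 7804. The signals of replicates 1, 2 and 3 were 286.509, 194.072 and 220.399, with ranks of 220, 287 and 555 in their own lists. Their summits spread over 46 bp. The −log10 IDR was 5, 4.77 and 5 in the ranked lists of replicates 1, 2 and 3. In the lists that compare replicates 1 and 2, 1 and 3, and 2 and 3 it was 4.38, 5 and 3.55. A weaker interval of the same region shared the start of the main one and ended at 14756394, where the main one ended at 14756391. Its summit was at 14756331, with a signal of 45.0 and a rank of 7582. In the replicates' own thresholded lists a second interval appeared there in replicate 3 only, with a summit at 14756282 and a signal of 82.6. All replicates held the main interval past the threshold, at lower ranks than the upstream intron.

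The third region, at 14757018 to 14757665, is named for the exon in which its strongest summit lay. It covers most of that exon and runs on into the intron that precedes it in the 9 transcripts other than RJ. Its summit at 14757161 lay in the 5′ UTR, 175 bp from the RJ start and 801 bp downstream of the shared start. It was a promoter peak by the rule used, a summit within 500 bp of a Trl start. Its signal was 361.802 and its rank 1676 of 7804. Replicates 1, 2 and 3 had signals of 127.272, 117.764 and 119.797 and ranks of 2091, 1064 and 2381, and the summits spread over 19 bp. The −log10 IDR was 3.85, 3.72 and 3.27 in their own ranked lists. In the lists that compare replicates 1 and 2, 1 and 3, and 2 and 3 it was 3.28, 4.49 and 2.81. This peak lay in the upper middle of the lists, at percentiles of 64.8, 72.0 and 57.3 in replicates 1, 2 and 3, where the upstream intron was at their head. A second interval of the region had a summit at 14757361, with a signal of 58.4 and a rank of 7525. That weaker summit lay in that intron, 25 bp from the RJ start and 418 bp from the RA start. In the replicates' own thresholded lists it appeared in replicate 3, with a summit at 14757358 and a signal of 53.8.

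The weakest region, on the Tsen34 side, was the least repeatable. It covered 14760267 to 14760582, with a summit at 14760455, a signal of 209.301 and a rank of 4014 of 7804. This summit lay 594 bp from the RF start, just outside the limit of 500 bp, in an intron of RF only. Replicate 1 held it past the threshold, with a signal of 68.8, a rank of 5217 and a summit at 14760566, which lay 483 bp from the RF start and so just inside the limit. In the ranked lists of replicates 2 and 3 the peak was present with signals of 84.4 and 48.8, but its −log10 IDR was 1.40 and 0.930, under the threshold of 2. In the list that compares replicates 2 and 3 it had 1.599 and was left out, whereas the lists of replicates 1 and 2 and of replicates 1 and 3 gave 2.50 and 2.31. The regions are drawn on the transcripts in the map of the locus.

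**Figure D1:**
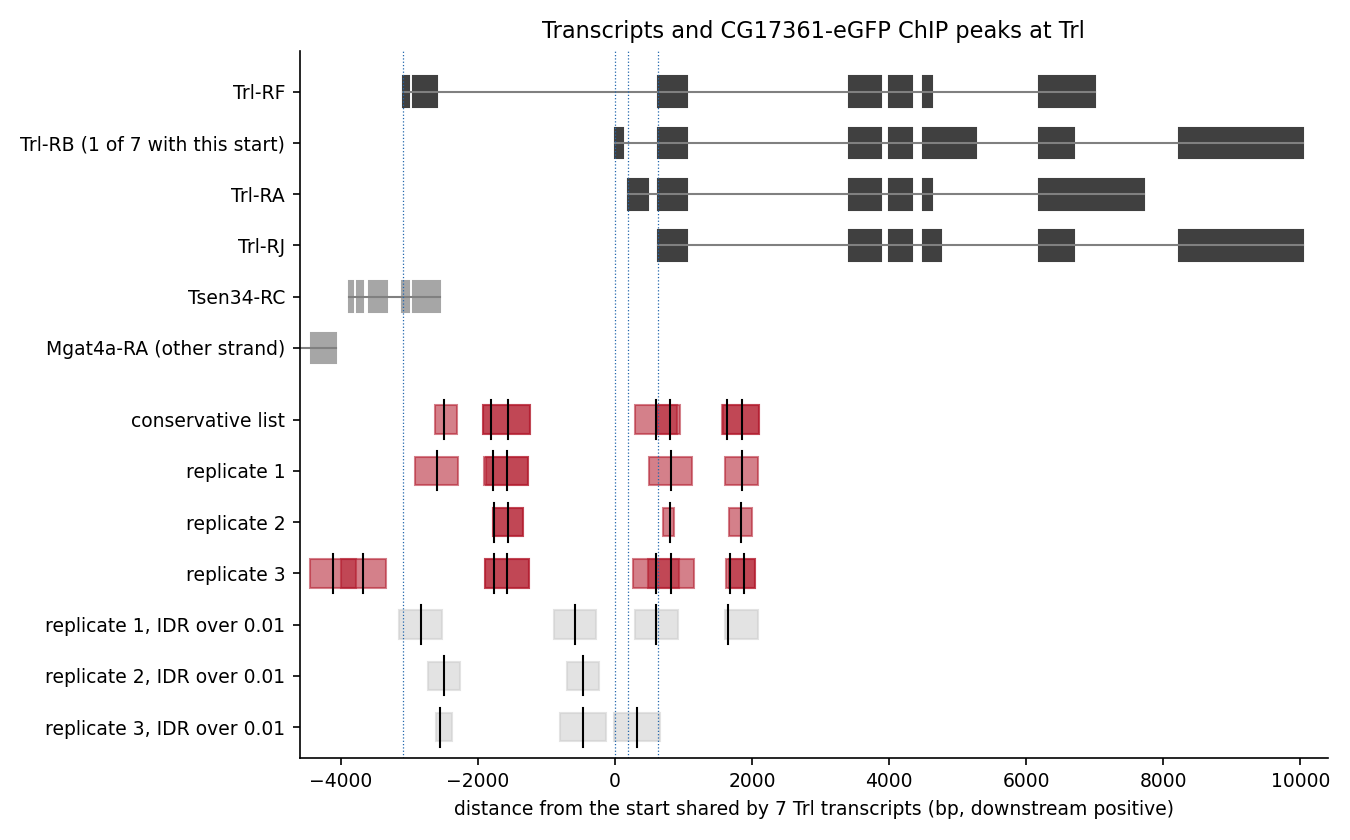
Map of Trl, oriented in the direction of transcription, in bp from the start shared by 7 transcripts. Dark boxes are Trl exons, grey boxes those of Tsen34 and Mgat4a (drawn in part), dotted lines the 4 Trl starts, red boxes thresholded peaks and pale grey boxes ranked peaks with an IDR over 0.01, with black ticks at summits. The thresholded summits gather in the upstream intron, the start-codon exon and the downstream intron in all 3 replicates, and the shared start at 0 has none within 500 bp.

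The pair lists and the pooled list reuse the same intervals and signals, made from all replicates together, so the signal of a region is the same in each and the ranks in them are not independent of each other. The 3 replicates' own lists rest on separate libraries. The upstream intron ranked 2 in each series-level thresholded list. The downstream intron ranked 292 or 293 there, and the start-codon exon between 1655 and 1681. Across the replicates the order of the 3 regions found in all of them was the same.

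**Figure D2:**
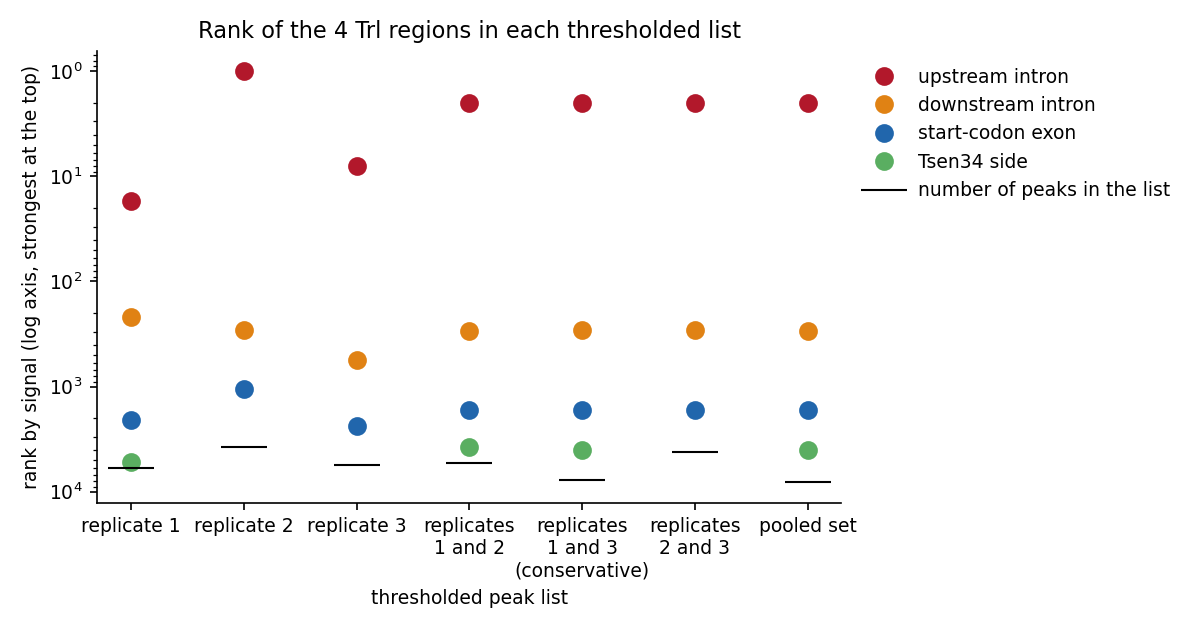
Rank by signal (log axis, strongest at the top) of the 4 Trl regions in the 7 thresholded lists, with a black bar at the number of peaks in each list. The upstream intron ranked 17, 1 and 8 in replicates 1, 2 and 3, above the downstream intron at 220, 287 and 555. The Tsen34 side is missing from replicates 2 and 3 and from their pair.

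**Figure D3:**
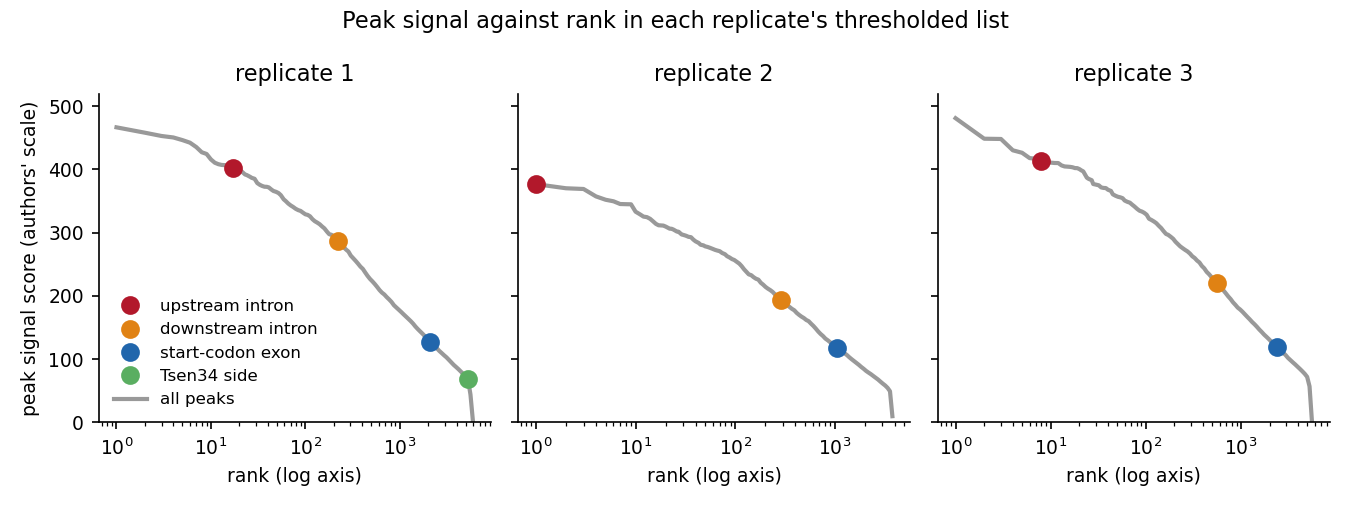
Signal score (authors' scale) against rank (log axis) of all peaks in the thresholded list of each replicate, with the Trl regions as coloured points. The upstream intron sits at the head of each curve, with signals of 402.03, 376.698 and 413.591, and the Tsen34 side appears at the lower end in replicate 1.

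The start used by most Trl transcripts had no thresholded peak close to it. In the conservative list the nearest summit was 601 bp from 14757962, and in replicates 1, 2 and 3 it was 811, 801 and 604 bp away. In the conservative list RJ and RA had a summit within 500 bp, RJ at 25 bp and RA at 418 bp. Both distances are to the same weak summit, at 14757361, which the other series-level thresholded lists lack. In those lists RJ had the summit at 14757161, 175 bp away, and RA had none within the limit. The RF start had its nearest summit at 594 bp in the conservative list. For comparison, 21.4% of all 23581 annotated starts had a summit within 500 bp in that list, and 18.4%, 12.5% and 17.3% in the lists of replicates 1, 2 and 3. In replicates 1 and 2 the nearest summit to RJ was 185 and 175 bp away, and in replicate 3 it was 22 bp away. RA had 1 within the limit in replicate 3, at 421 bp, while in replicates 1 and 2 its nearest summit was at 628 and 618 bp. Of the 4 starts, RJ therefore had a summit within the limit in every replicate.

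A weak peak upstream of the shared start was listed but did not pass IDR. In the ranked list of replicates 1 and 3 its summit was at 14758556, 594 bp before the shared start, with a signal of 102.7 and a −log10 IDR of 0.480. In the ranked lists of replicates 1, 2 and 3 its signals were 64.8, 21.5 and 20.7 and its −log10 IDR was 1.08, 1.15 and 0.490. Its summit lay 584 bp before the shared start in replicate 1 and 465 bp before it in replicates 2 and 3. The ranked list of replicate 3 held a further summit, 324 bp downstream of the shared start, with a signal of 11.4 and a −log10 IDR of 0.174. The highest value in any of the 7 ranked lists was 1.29, for replicates 1 and 2. These values are all under 2, and those of the upstream intron were at 5 throughout.

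**Figure D4:**
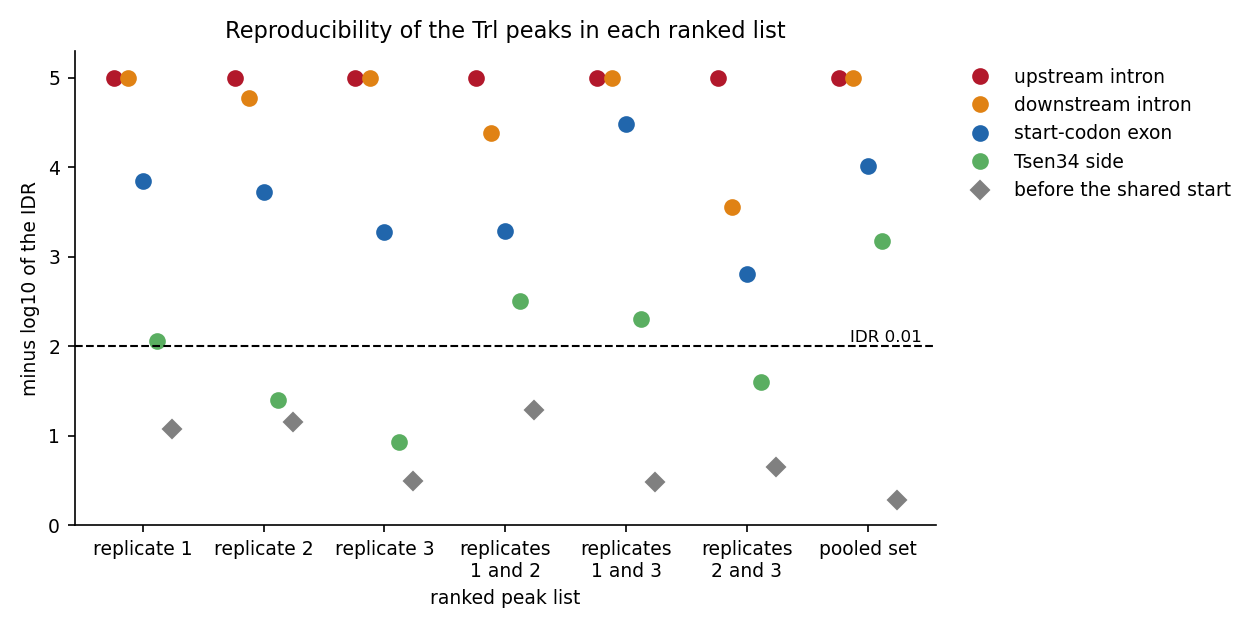
The −log10 of the IDR of the 4 Trl regions and of the weak peak before the shared start in the 7 ranked lists, with a dashed line at the threshold of 2. The upstream intron is at 5 in each list, the Tsen34 side lies between 0.930 and 3.18, and the weak peak stays between 0.288 and 1.29. Only the lists of pairs are known to compare replicates.

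Among the neighbours with a start within 10 kb of Trl, Tsen34, Mgat4a and Mgat4b had no summit within 500 bp of a start or in their bodies in the conservative list. The body of CG42507 holds the summits of the start-codon exon and the downstream intron, which are also those of Trl. In replicate 3, 2 further thresholded summits lay by the divergent starts of Tsen34 and Mgat4a, at 14761633 with a signal of 17.6 and at 14762072 with a signal of 69.3. Mgat4a and Mgat4b encode enzymes that add branches to N-glycans. Replicates 1 and 2 had no thresholded summit there, and the start of Mgat4b had none in any of the thresholded lists. Beyond the 10 kb limit, the nearest peak on the downstream side lay 15941 bp from Trl, in ome, a dipeptidyl peptidase gene, with a signal of 151.8 and a rank of 5733. On the other side the nearest lay 20588 bp away at bmm, which encodes the lipase Brummer, with a signal of 724.007 and a rank of 276. No peak of the conservative list lay between the gene and the edge of the window on either side, and all 6 lay inside the gene body.

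Trl had 2 promoter peaks, with a summit within 500 bp of an own start, and 4 own intron peaks, with a summit over 500 bp from every start. Of the intron peaks, 2 were the nearly identical intervals of the downstream intron, and merging overlapping intervals left 3. In the list of replicates 1 and 2, that of replicates 2 and 3 and the pooled list it had 1 promoter peak, since the weaker interval of the start-codon exon was absent from them. In the conservative list 22.3% of all genes had the first kind, 6.42% the second and 3.31% both, which is 602 genes. At least 6 peaks in the body or within 10 kb, the number at Trl, were found at 7.17% of genes, and at least 4 own intron peaks at 1.24%. The median gene had 1 peak in its window and the highest had 38. The Trl window of 33121 bp was longer than the median window of 21656 bp. Since these values chose Trl, the shares are a scale for reading its counts and not a result about it.

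The replicates' own lists held 5, 3 and 7 peaks in the window for replicates 1, 2 and 3. Of these 2, 1 and 2 were Trl promoter peaks and 3, 2 and 3 Trl intron peaks, and in replicate 3 the other 2 were those at Tsen34 and Mgat4a. In these lists 19.3%, 13.4% and 18.3% of all genes had a promoter summit, 5.19%, 4.4% and 5.1% had an own intron summit, and 2.2%, 1.28% and 2.26% had both. At least as many peaks as at Trl were found at 7.93%, 11.5% and 1.39% of genes, and at least as many own intron peaks at 1.38%, 1.7% and 1.23%.

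The 602 genes with both kinds of peak give a place for the strength of the Trl peaks. The strongest intron peak of Trl ranked 1 among the 602, and its strongest promoter peak ranked 231. The median strongest intron signal was 313.7 and the median strongest promoter signal 272.5. The intron peak was the stronger one at 319 of these genes (53.0%), Trl among them.

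The genes whose pattern was most like that of Trl were CG10543, wde, mbc, CG42258 and grh. Likeness was the Euclidean distance over 6 values, the percentiles of the strongest promoter and the strongest intron peak in each of the 3 replicates' lists, and these genes lay 28.4, 30.5, 31.1, 31.5 and 34.5 percentile points from Trl. wde encodes Windei, a partner of the histone methyltransferase Eggless. mbc encodes Myoblast city, which activates Rac in muscle cell fusion, and grh encodes Grainyhead, a transcription factor of epithelia. The strongest intron peaks of CG10543, wde, mbc, CG42258 and grh ranked 862, 448, 537, 429 and 304 in the conservative list, where that of Trl ranked 2. The nearest gene in likeness was thus still far from Trl in the rank of its intron peak.

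Other intron peaks lay close to the upstream intron of Trl in rank. They were in CG32772 on X, with a signal of 1161.64 and a rank of 6, in CG1677 and lncRNA:CR44357 on X, with 1135.82 and a rank of 10, and in CG11050 on 2L, with 1119.42 and a rank of 13. In replicates 1, 2 and 3 the peak in CG32772 ranked 18, 17 and 3, that in CG1677 ranked 3, 19 and 41, and that in CG11050 ranked 27, 10 and 16. Trl, at 17, 1 and 8, overlapped these ranks, so the order of the 4 peaks differed between replicates.

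GC content within 50 bp of the summits was 29.7% in the upstream intron, 31.7% in the downstream intron, 43.6% in the start-codon exon and 28.7% on the Tsen34 side. All peaks of the conservative list averaged 32.4 ± 9.51% (SD over 7804 peaks, which are not replicates). In windows of equal length centred 250 bp to each side the Trl regions had 38.1%, 46.5%, 54.5% and 49.0% in the same order, and all peaks averaged 42.8%. The 4 main summits were therefore poorer in GC than their own flanks, as the average peak was. The difference was 8.42 points in the upstream intron and 10.9 in the start-codon exon, under the median of 11.9 over all peaks. It was 14.9 points in the downstream intron and 20.3 on the Tsen34 side. Of the weaker summits, those at 14757361 and 14759770 were also poorer than their flanks. The weaker summit of the downstream intron, at 14756331, was richer, with 48.5% against 39.6%. Of all peaks, 46.7% had a GC content as low as the upstream intron or lower, and 87.1% as low as the start-codon exon or lower. The upstream intron, rank 2 in signal, was in this respect near the middle of the list, and the start-codon exon towards its GC-rich end. At the replicates' own upstream intron summits GC was 27.7%, 29.7% and 29.7% in replicates 1, 2 and 3. This value depends on the window, with 37.3% within 25 bp and 23.9% within 100 bp of the summit.

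Within the same 101 bp, the upstream intron held 3 runs of 8 or more A and T, the Tsen34 side 2, the downstream intron 1 and the start-codon exon 0, where the median over all peaks was 2. As many runs as in the upstream intron were held by 27.0% of all peaks.

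**Figure D5:**
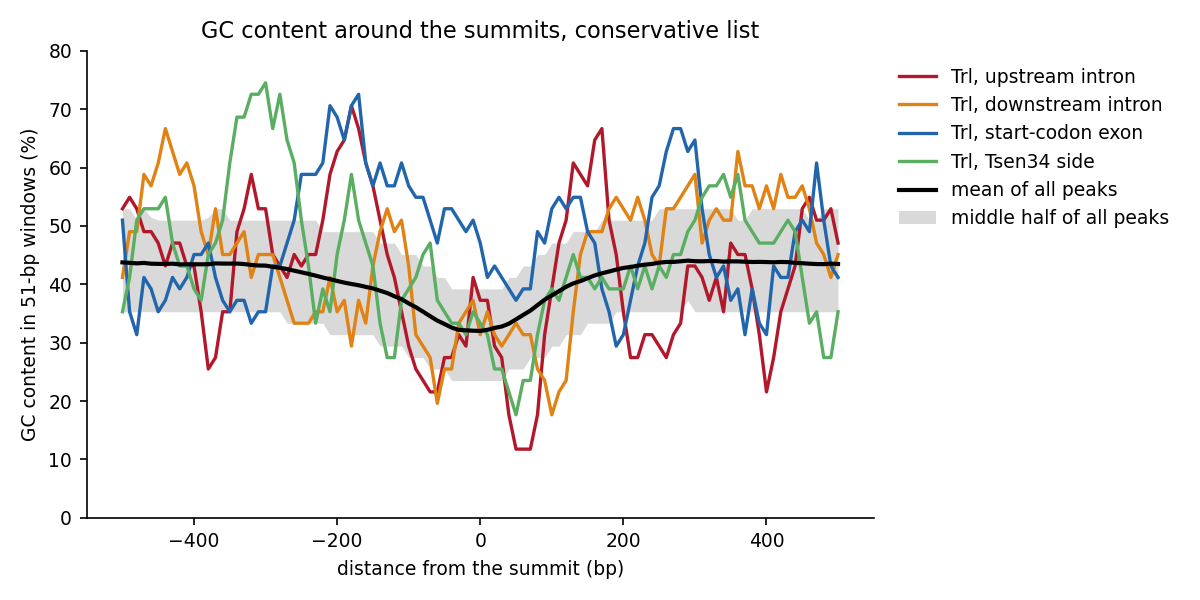
GC content in windows of 51 bp, in percent, against distance from the summit in bp, for the 4 Trl regions (coloured) and for all peaks of the conservative list (black line, mean; grey band, from the lower to the upper quartile). The average GC falls at the summit, to 32.0%. The upstream intron has minima on either side of its summit. At the summit itself the start-codon exon, at 47.1%, and the upstream intron, at 37.3%, lie above the mean. The Tsen34 side, at 33.3%, and the downstream intron, at 31.4%, are close to it.

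GAGAG, the motif of the GAGA factor, was searched on both strands. None of the main summits of the 4 Trl regions had a match within 50 bp, where 8.35% of all peaks and 12.6% of all annotated starts had at least 1. The weaker summit of the start-codon exon region, at 14757361, had 8 overlapping matches between 18 and 36 bp to its plus-strand side, which together form the 19-base repeat printed above. The longer GAGAGAG had 7 overlapping matches in the same repeat, and 1.13% of all peaks and 1.52% of all starts had it within 50 bp. Over the whole intervals, the start-codon exon region held 11 GAGAG matches in 648 bp, the Tsen34 side 2 in 316 bp, the upstream intron 1 in 686 bp and the downstream intron 0 in 535 bp. The gene body held 50 in 13121 bp.

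A match of TATAAA on the minus strand lay at the upstream intron summit, with its first base at 14759527, 2 bp from the summit. It is inside the capital run TTTTTATA printed above. The 3 replicates' summits all lay within 18 bp of that base. TATAAA within 50 bp was found in 26.1% of all peaks and 14.99% of all starts. The other motifs had no match, on either strand, within 50 bp of a thresholded summit of the conservative list at Trl. TATCGATA, the site of DREF, was found in 1.81% of all peaks and 3.76% of all starts. CGATA, the core of the site of the insulator protein BEAF-32 and contained in TATCGATA, was found in 13.9% and 21.4%. CAGGTA, a site of the early activator Zelda, was found in 1.73% of all peaks and 2.11% of all starts. TTTAAAAA and ATATTTTA, chosen because they led an earlier analysis of these peaks, were found in 7.27% and 6.36% of all peaks, and in 2.32% and 1.62% of all starts. A missing match says only that these letters are not in the window.

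Genes linked to the GAGA factor were counted in the conservative list beside the 22.3% of all genes with a promoter summit. That share covers genes of every type and length, and the lists of linked genes were not matched to it. Of 15 partners of the factor, 8 had a promoter summit (53.3%). The strongest were brm, which encodes the ATPase of the Brahma remodelling complex, with a signal of 900.2, and dre4, a subunit of the histone chaperone FACT, with 303.2. psq, which encodes the BTB protein Pipsqueak, had 224.4, and Bap170, a subunit of the PBAP form of the Brahma complex, had 219.0. The promoter summits of brm and dre4 were present in all 3 replicates, that of Bap170 in 2 and that of psq in 1. The remaining bound partners had promoter signals between 180.1 and 187.9, and none of these summits was present in all 3 replicates. The 7 partners without a promoter summit were mod(mdg4), E(bx), Caf1-55, Ssrp, mor, polybromo and e(y)3. Of these, mod(mdg4) and E(bx) each had one in 1 replicate's own list. Own intron peaks were found at psq and brm only, 2 of the 15, with signals of 685.6 and 207.5, beside 6.42% of all genes.

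Of 12 relatives of Trl with the same type of BTB domain, 4 had a promoter summit (33.3%), namely lola with a signal of 655.5, fru with 243.3, psq with 224.4 and lolal with 182.2. Intron peaks of their own were held by 9 of the 12, beside 6.42% of all genes. That share covers genes of every type and length, and the 12 were not matched to it. The lists were also chosen with earlier results of these data known, so the counts are a description only. The strongest of these intron peaks were those of psq with 685.6, rib with 451.8, bab1 with 385.2 and ttk with 329.5. Each of these was below the upstream intron of Trl at 1188.04. lola, fru, ttk and bab1 encode transcription factors of development, and lolal encodes a small BTB protein that joins the GAGA factor. Of 13 well-studied targets of the GAGA factor, 2 had a promoter summit (15.4%), Act5C, an actin gene, with 752.6 and Hsp26, a small heat shock gene, with 395.8. Both were present in all 3 replicates. Own intron peaks were found at 2 of the 13, beside 6.42% of all genes. These were the homeotic gene Abd-B, with 794.8, and the ecdysone-response gene Eip74EF, with 616.8. The other 9 of these targets had neither kind of summit. They were the homeotic gene Ubx, the segmentation genes en, ftz and eve, and 5 Hsp70 genes, near-identical copies between which reads are hard to place. Whether that bears on the missing summits was not tested.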

How the data were processed

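Per the file headers and listings, the authors mapped reads to dm6 and deposited ranked and IDR-thresholded peak lists, 14 in all. No aligner or peak caller is named in the sources used here. Peak signals are the authors' deposited score, of unstated scale, used here to rank and describe peaks within a list. The global IDR is deposited by the authors as a −log10 value, and 2 (IDR 0.01) is the threshold. The replicates behind the series-level lists were identified by identical intervals and signals, and the conservative list compares replicates 1 and 3. An interval counted once, with the summit of its strongest line, and the annotation was Ensembl release 115 without transposable elements. Sequences come from the RefSeq copy of Release 6. The helpers that collapse and rank intervals, find motifs and measure GC and A/T runs were checked on made-up input with known answers. The placing of peaks by promoter and intron was not checked in that way. The code was run with Python 3.11.15, pandas 2.3.3 and numpy 2.4.6. Named genes were Trl, its neighbours within 10 kb, the 5 most like it, the 3 intron peaks nearest in rank and, of each list, up to 4 bound members and all unbound GAGA factor partners. The members and lists were chosen with earlier results of these data known. Left out were reads and the control library.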

Additional observations from a re-analysis of the deposited data

How the results depend on the processing

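A count was taken as unchanged within 1.5 times its value in the conservative list, and a percentile or GC content within 1 SD of the replicates. By that rule 27 of 37 values of 5 results were unchanged and 10 moved. Smaller shifts stayed inside it: the window held 4 peaks in place of 6 without replicate 3, without replicate 1 and with overlapping intervals merged, 5 in the pooled set, and 7 with every line counted or a window of 20 kb. Intron peaks were 3 in place of 4 in those first 3 settings, with a promoter limit of 1000 bp and with interval overlap, and 5 with every line counted. Promoter peaks were 3 in place of 2 with that limit or with overlap. The number of Trl promoter peaks, 2 in the conservative list, was 1 without replicate 3 and 1 without replicate 1, 1 in the pooled set, 1 at an IDR of 0.001 or less, and 1 with overlapping intervals merged, a choice added after seeing the data. At an IDR of 0.001 or less the window held 3 peaks in place of 6, and 2 intron peaks in place of 4. The upstream intron had 29.7% GC within 50 bp, but 37.3% within 25 bp, 23.9% within 100 bp and 27.7% at the summit of replicate 1. The percentile of the upstream intron peak stayed between 99.976 and 99.988 in every series-level list tried. Its signal is the same in each of them, so only the set of peaks kept could change that percentile. The cause of these moves was not tested, beyond the alternatives' own construction. Leaving out replicate 2 gives the conservative list itself. A pair list without a replicate still draws on the alignments of all 3. No paired analysis was possible because there is 1 group.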
